A study of Nematostella vectensis with 18 samples.

Results

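The Nep3 reporter of the sea anemone Nematostella vectensis marks tentacle cells in which the Nep3 promoter drives a fluorescent protein, and the transcripts that separate these cells from the reporter-negative cells of the tentacle are described here. Fluorescence-activated cell sorting (FACS) split dissociated tentacles of the Nep3::mOrange reporter line into a positive and a negative population, and poly(A) RNA of each was sequenced in bulk. The comparison takes 10 of the 18 libraries of the series, chosen by their titles: 5 Nep3-positive and 5 Nep3-negative. The other 8 libraries are 4 Ncol3-positive and 4 Ncol3-negative ones from the Ncol3::mOrange line, and are used to set the Nep3 results beside a separate sort; they also share the filter, the scaling and the estimate of spread with the Nep3 libraries. With the 10 Nep3-line libraries fitted alone, 1188 of the 1253 genes called more than 2-fold higher and 1022 of the 1077 called more than 2-fold lower were called again. All polyps were untreated, and culture was at 18 °C and a salinity of 16 permil; the labels give no age. Nothing in the labels says that the replicates came from separate animals, so p-values measure the spread between these libraries, which may be technical.

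Cnidocytes are the stinging cells of cnidarians. Each builds a capsule, the cnidocyst, from minicollagens and other secreted proteins, and fires it on contact; Nematostella has capsule types known as nematocysts and spirocysts, and its tentacles are rich in both. Ncol3 encodes a minicollagen of the capsule wall, and Nep3 encodes a protein found in nematocysts. A promoter reporter marks the cells in which that promoter is or was active, since the fluorescent protein can outlast its transcript. Negative cells are all other sorted tentacle cells, so they are a mixture and may hold cnidocytes that the reporter left dark.

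The table holds 24537 gene IDs with the prefix NV2, and a row for the reporter transcript mOrange2. The IDs are not paired with names in the files, and 0 of them matched the RefSeq gene table used here. Genes are therefore given by ID, only 4 are named, and no function, position or sequence is attached to them. Markers of tentacle cell types other than mOrange2 were not looked up for the same reason. Library totals in the Nep3 line ran from 7600919 counts (Nep3-negative replicate 2) to 15269119 (Nep3-positive replicate 5). Of the 24537 genes, 18975 passed the filter on low counts over the 4 groups and were tested, and 5562 were not; 1070 had no count in any of the 10 Nep3-line libraries. In bulk RNA, fewer cells of a type and less RNA per cell cannot be told apart, and this holds for every difference given here.

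The reporter transcript was examined first, because it checks the sort. In CPM (a count relative to its library size, here after TMM scaling, a correction for library composition), mOrange2 stood at 618, 928, 539, 798 and 675 in Nep3-positive replicates 1 to 5. It stood at 37.1, 32.6, 46.5, 189 and 132 in Nep3-negative replicates 1 to 5. The lowest positive library was 2.85 times the highest negative one (with 0.5 CPM added to both), so the groups did not overlap and each library matched its label. The log2 fold change was 3.02 (95% interval 2.09 to 3.95; adjusted p = 2.78e-05 by the quasi-likelihood test of edgeR). Negative replicates 4 and 5 were the high ones, at 26.6% and 18.6% of the positive mean, against 4.58% to 6.53% in replicates 1 to 3.

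**Figure D1:**
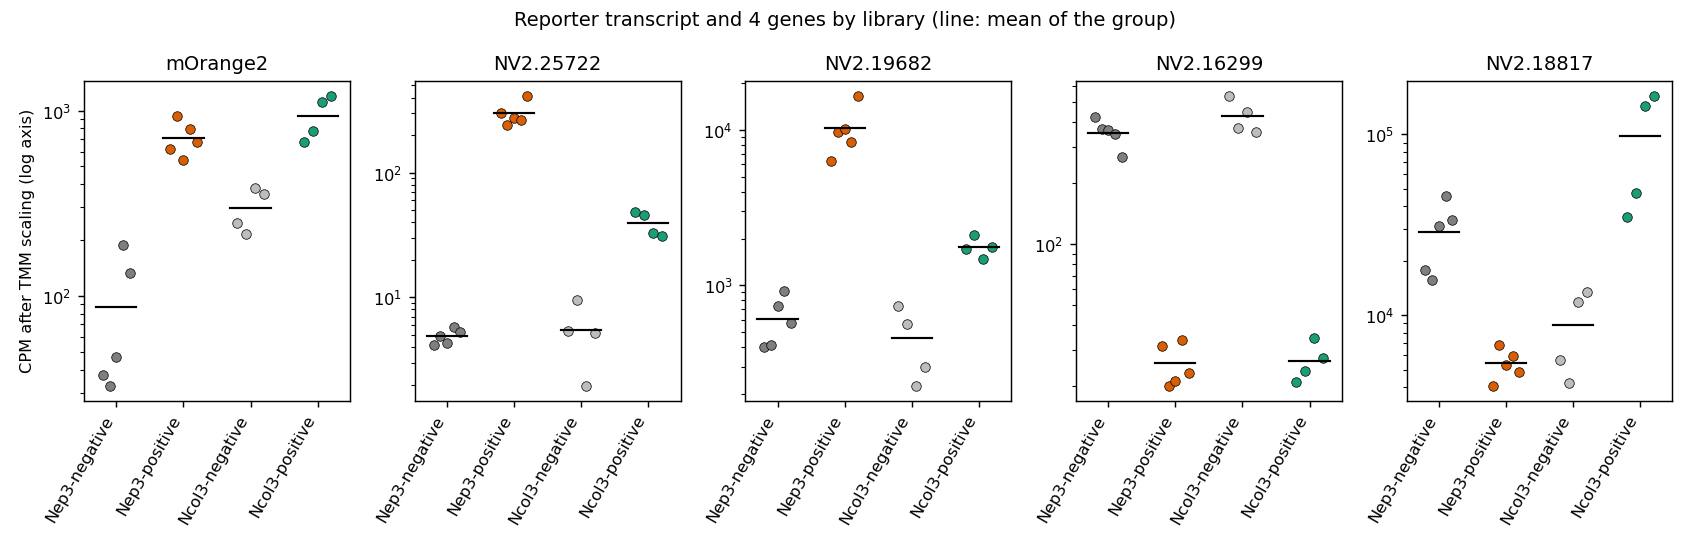
Levels of mOrange2 and of the 4 named genes in each library, in CPM after TMM scaling on log axes that differ between panels; each point is a library and each line the mean of its group. NV2.25722 and NV2.19682 were highest in Nep3-positive libraries and intermediate in Ncol3-positive ones, NV2.16299 was low in both positive populations, and NV2.18817 was low in Nep3-positive and high in Ncol3-positive libraries.

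Nep3-positive and Nep3-negative cells differed in a large part of their transcripts. A test of any difference called 7178 of 18975 genes (37.8% of all tested; adjusted p under 0.05), 3534 higher and 3644 lower in positive cells, and 2891 of them had an estimate below 2-fold. A stricter test asked which genes differed by more than 2-fold (edgeR glmTreat, adjusted p under 0.05). By default its null covers all changes of up to 2-fold, which is less strict than a test at the 2-fold boundary itself. It called 2330 genes (12.3%), of which 1253 were higher in Nep3-positive cells (6.6%) and 1077 lower (5.68%). These are called the higher and the lower genes below. The median log2 fold change was 2.99 in the higher and −1.97 in the lower genes, against −0.02 over all genes tested. The groups did not overlap in 1224 of the 1253 higher genes, where 14.3% of all tested genes lay apart in that direction, and in 1054 of the 1077 lower genes, where 14.7% did. The same libraries chose these genes, so those counts describe the calls and are no further support for them. DESeq2 tested at the 2-fold boundary, so its null differs from that of glmTreat. It called fewer genes in both directions, 1077 higher and 634 lower. A minimum mean of 5 CPM left 827 higher genes.

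**Figure D2:**
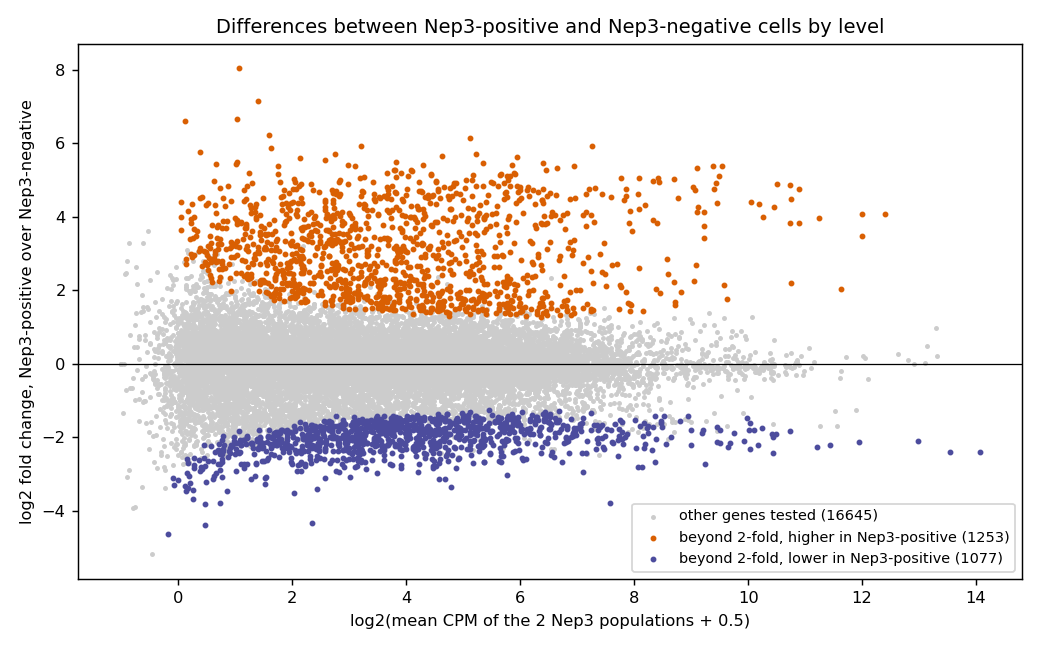
Log2 fold change between Nep3-positive and Nep3-negative cells against the mean level of each gene; orange and blue points are the 1253 higher and 1077 lower genes, grey points all others tested. The orange points reach higher absolute fold changes than the blue points, with 621 against 34 genes at 8-fold or more.

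The higher genes had the larger fold changes. An estimate of at least 4-fold was found for 978 higher and 510 lower genes, of at least 8-fold for 621 and 34, and of at least 16-fold for 314 and 3. At least 32-fold was reached by 62 higher genes and 0 lower ones. Only 2 of the higher genes had no count in any negative library; set to a floor of 3 counts over the 5 negative libraries, they were at least 22.0-fold and at least 59.6-fold higher, which left 61 genes at 32-fold or more. The median of the higher genes with these bounds was again 2.99. Without Nep3-positive replicate 5 there were 561 genes at 8-fold higher or more, and over all libraries left out singly the number of genes at least 8-fold lower ran from 24 to 48. It was 19 when only the 10 Nep3-line libraries were fitted and 8, against 379 higher, among genes with a mean of at least 5 CPM.

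**Figure D3:**
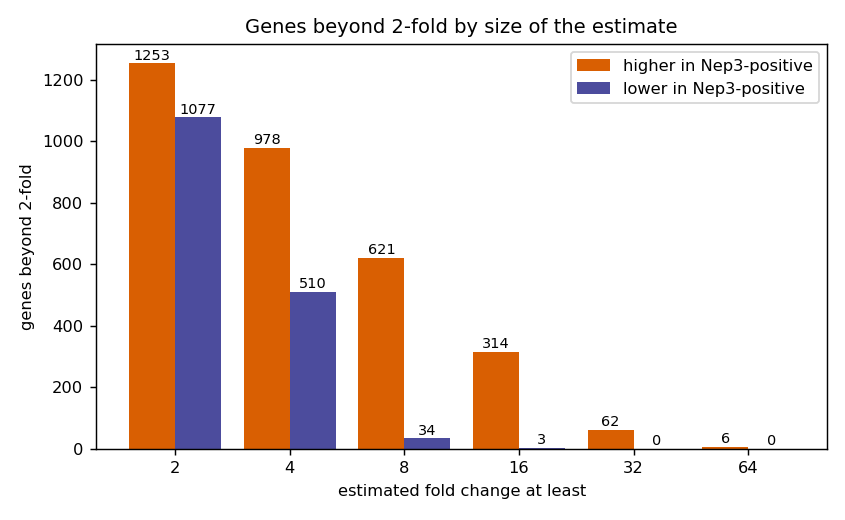
Number of genes beyond 2-fold whose estimated fold change was at least the value on the horizontal axis. At 8-fold or more, 621 genes were higher and 34 lower; 2 of the higher genes had no count in negative libraries, and their fitted values at the right end depend on the prior count.

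Few genes were detected in a single population. A count was seen in every negative library for 1072 of the 1253 higher genes, and in every positive library for 1027 of the 1077 lower genes. Over the whole table, 17 genes had counts in all 5 positive and in none of the 5 negative libraries, and 6 had the reverse. With at least 10 counts asked in each library of the group that had the transcript, 1 gene was left in the first class and 0 in the second. Absence here means no count in these libraries, not that the transcript was absent from the cells. The lowest positive library exceeded the highest negative library at least 8-fold in 170 higher genes and at least 16-fold in 19. Among lower genes, the lowest negative library exceeded the highest positive one at least 4-fold in 9 genes and at least 8-fold in 0.

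Differences were found at every level of expression. Among the 7210 genes with a mean of 1 to 10 CPM over the 10 libraries, 7.18% were higher genes and 5.78% lower genes. Among the 8755 genes of 10 to 100 CPM the shares were 6.48% and 5.79%, and among the 1419 genes of 100 to 1000 CPM they were 7.75% and 7.47%. The 120 genes at 1000 CPM or more had the highest shares, 13.3% higher and 15% lower. In that class, 14 of 16 higher genes were at least 8-fold higher and 0 of 18 lower genes were at least 8-fold lower. In the 1471 genes under 1 CPM, 42 were higher and 29 lower genes.

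NV2.25722 had the widest gap between the groups of the 875 higher genes with a mean of at least 10 CPM in positive libraries. It stood at 4.14, 4.95, 4.34, 5.81 and 5.30 CPM in Nep3-negative replicates 1 to 5. In Nep3-positive replicates 1 to 5 it stood at 303, 239, 274, 264 and 415 CPM. The lowest positive library was 38.0 times the highest negative one (0.5 CPM added to both). Negative replicates 4 and 5, which were high in mOrange2, were also the highest negative libraries for this gene, at 5.81 and 5.30 CPM. The log2 fold change was 5.92 (95% interval 5.29 to 6.54; edgeR adjusted p = 2.03e-12). By mean level it ranked 421st of all genes in positive and 12654th in negative cells. In the Ncol3 line, whose libraries do not enter that difference, the gene was also higher in positive cells, at 39.5 ± 9.03 against 5.51 ± 3.12 CPM (SD, n = 4 each; log2 fold change 2.88, SE 0.30, edgeR adjusted p = 4.12e-07). The Nep3-positive mean was 299 ± 68.6 CPM (SD, n = 5).

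NV2.19682 gained the most in CPM. Its level was 399.8, 413, 738, 919 and 571 CPM in Nep3-negative replicates 1 to 5. In Nep3-positive replicates 1 to 5 it was 6310.4, 9703, 10101, 8364 and 16650.2 CPM, which made it the 4th most abundant gene of these cells and 1.59% of all counts in replicate 5. All positive libraries lay above all negative ones, the lowest 6.86 times the highest, and positive replicate 5 was the highest. The log2 fold change was 4.07 (95% interval 3.36 to 4.78; edgeR adjusted p = 2.75e-09) and was 3.83 without that replicate. In Ncol3-positive libraries the gene was at 1762 ± 260.1 CPM, against 456 ± 237 in Ncol3-negative ones (SD, n = 4 each; log2 fold change 1.95, SE 0.35, edgeR adjusted p = 0.000173).

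Among the lower genes, NV2.16299 had the widest gap. It stood at 423, 370.2, 365, 348 and 269 CPM in Nep3-negative replicates 1 to 5. In Nep3-positive replicates 1 to 5 it stood at 31.4, 20.04, 21.3, 33.7 and 23.2 CPM. The groups lay far apart, the lowest negative library 7.88 times the highest positive one, with negative replicate 5 the lowest of its group. The log2 fold change was −3.77 (95% interval −4.17 to −3.37; edgeR adjusted p = 3.01e-13). In Ncol3-positive cells the gene was at much the same level, 26.8 ± 5.89 CPM (SD, n = 4), and the difference between lines in its log2 fold change was 0.24 (SE 0.26), which did not pass the threshold (edgeR adjusted p = 0.571).

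NV2.18817 lost the most in CPM, and its level varied widely within the negative group. It was at 17870.7, 15627.5, 31216, 45424 and 33687 CPM in Nep3-negative replicates 1 to 5, where by mean level it was the most abundant gene. In Nep3-positive replicates 1 to 5 it was at 4054, 6859.7, 5318, 5968 and 4833 CPM and ranked 11th. The groups did not overlap, with negative replicates 3 to 5 above replicates 1 and 2. The log2 fold change was −2.41 (95% interval −3.31 to −1.51; edgeR adjusted p = 0.000139). The adjusted p for a difference beyond 2-fold was 0.00404 with edgeR, but 0.0712 with limma voom and 0.0729 without negative replicates 4 and 5. Ncol3-positive libraries held 34960.5, 47587, 143351 and 163750.0 CPM and Ncol3-negative libraries 5622, 4229, 11850.3 and 13417 CPM. The difference in this line thus had the opposite sign (log2 fold change 3.47, SE 0.50, edgeR adjusted p = 2.43e-05).

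A small number of abundant genes made up much of the change in RNA composition. The 1253 higher genes held 13.6%, 14.2%, 16.8%, 15.4% and 21.6% of the counts in Nep3-positive replicates 1 to 5. They held between 1.73% and 1.97% in the 5 Nep3-negative libraries. The 1077 lower genes held between 16.0% and 21.3% of the counts in negative libraries and between 3.67% and 4.96% in positive ones. These genes were chosen on the same libraries, so the shares are a description and were not tested. The 23 higher genes with the largest gains made up 50% of the summed gain in CPM of the higher genes, and the 9 with the largest losses made up 50% of the summed loss of the lower genes. The 20 higher genes with the largest gain took 7.53% of the counts in positive and 0.563% in negative libraries, as means, and their log2 fold changes ran from 2.03 to 5.37. The 20 lower genes with the largest loss took 10.5% in negative and 2.33% in positive libraries, with log2 fold changes from −2.42 to −1.61.

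**Figure D4:**
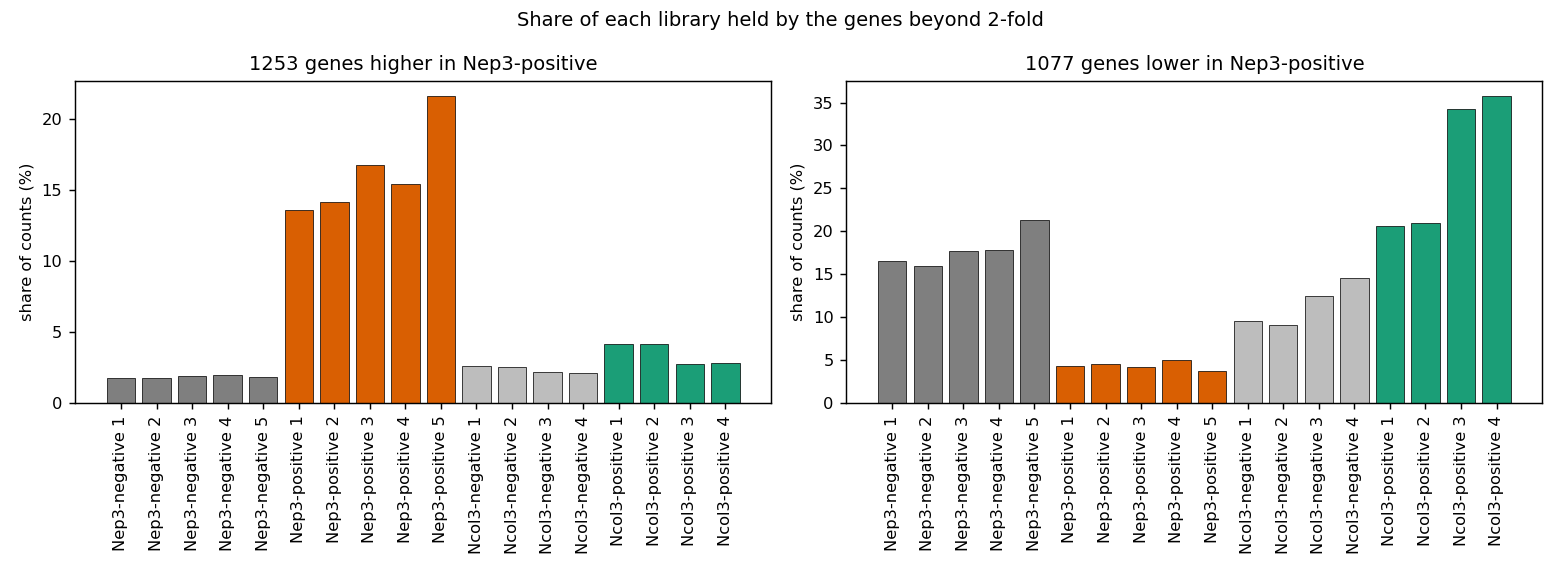
Share of each library's counts held by the 1253 higher genes (left) and the 1077 lower genes (right), in percent; each bar is a library. The higher genes held 13.6% to 21.6% in Nep3-positive and at most 4.16% in all other libraries, while the lower genes held 20.6% to 35.7% in Ncol3-positive and 16.0% to 21.3% in Nep3-negative libraries.

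Nep3-positive replicates were not equally rich in the higher genes. Replicate 5 was the highest of the 5 positive libraries in 937 of the 1253 higher genes (74.8%), against 24.8% of all genes tested. Replicate 1 was the lowest in 515 of them (41.1%), against 20.5% of all genes. Relative to the group mean on the log2 scale, the median higher gene was at 0.49 in replicate 5 and at −0.26 in replicate 1 (0.5 CPM added). Among the lower genes, replicate 5 was the lowest positive library in 371 of 1077 (34.4%), against 19.0% of all genes. Replicate 4 was the highest in 429 (39.8%), against 19.5% of all genes. mOrange2 did not follow this order, since replicate 2 was its highest positive library and replicate 3 its lowest. Without replicate 5, 1106 of the 1253 higher and 868 of the 1077 lower genes were called again.

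Nep3-negative replicates differed in the reporter far more than in the genes that mark the positive cells. The mean of replicates 4 and 5 over that of replicates 1 to 3 was 2.04 on the log2 scale for mOrange2 (0.5 CPM added). For the higher genes the median of the same ratio was 0.18, for the 621 genes at least 8-fold higher it was 0.30, and over all genes it was 0.01. At least 2-fold was reached by 35 of the 621 genes (5.64%), against 0.896% of all genes. The median level of the 621 genes in the negative libraries was 3.93%, 4.30%, 5.69%, 6.78% and 6.10% of their positive mean in replicates 1 to 5. Both mOrange2 and this median were thus lowest in replicates 1 and 2 and highest in replicate 4, with a much smaller span in the genes. With negative replicates 4 and 5 left out, 1150 of the 1253 higher and 877 of the 1077 lower genes were called again.

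The Ncol3 line offers a separate sort by another capsule gene, and its libraries do not enter the Nep3 difference that chose the higher and lower genes, though they share the fit. Of the 1253 higher genes, 664 (53.0%) rose in Ncol3-positive cells too, where 14.7% of all genes tested were called in that direction. A further 581 were not called in the Ncol3 line, and 8 (0.638%) were lower there, where 13% of all genes were called in that direction. The share also higher in the Ncol3 line was 33.8% for the 275 genes with an estimate under 4-fold in the Nep3 line. It was 42.9% for the 357 genes of 4-fold to 8-fold, 55.7% for the 307 of 8-fold to 16-fold and 78.7% for the 314 of at least 16-fold. The median log2 fold change of the higher genes was 1.06 in the Ncol3 line, against −0.05 over all genes. Scaling matters here: with library size only, the median over all genes in the Ncol3 line was −0.72. Of the 1205 higher genes then called, 363 (30.1%) were also higher in that line and 55 lower. With only Ncol3 replicates 1 and 2, whose positive libraries lie apart from 3 and 4, 445 of 1345 (33.1%) were also higher. With only 3 and 4 the number was 499 of 1343 (37.2%). The share over all genes was not computed for these settings, and the 14.7% and 13% belong to the main fit only.

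The test of the difference between lines (the interaction) was passed by 904 of the 1253 higher genes (72.1%), where 22.8% of all genes tested were called. In 903 of them the log2 fold change was larger in the Nep3 line, a direction called for 11.1% of all genes. Because the Nep3 difference that chose the genes is part of this test, the share is a description. The reporter transcript mOrange2 averaged 939 CPM in Ncol3-positive and 299 CPM in Ncol3-negative libraries (n = 4 each). Its means were 712 CPM in Nep3-positive and 87.5 CPM in Nep3-negative libraries (n = 5 each). The mOrange2 interaction, 1.37 on the log2 scale (SE 0.61), did not pass the threshold (edgeR adjusted p = 0.124). This comparison depends on the scaling. Without TMM, mOrange2 took 0.0646% to 0.0696% of the counts in Ncol3-positive and 0.0277% to 0.0449% in Ncol3-negative libraries. It took 0.0568% to 0.0984% in Nep3-positive and 0.00372% to 0.0178% in Nep3-negative ones. The interaction of mOrange2 without TMM was not examined. Whether a less complete Ncol3 sort made differences smaller there was not tested. Of the 581 higher genes that were not called in the Ncol3 line, 415 passed the interaction, so for the other 166 a difference between lines was not shown. By mean level, Nep3-positive cells were the highest of the 4 populations in 1194 of the 1253 higher genes (95.3%), against 32.3% of all genes tested; the choice of the genes had already set them above Nep3-negative cells. The 664 genes also higher in the Ncol3 line held most of the counts of the higher genes in both positive populations. Their share of all counts was 13.7% ± 2.78 in Nep3-positive libraries (SD, n = 5) and 2.74% ± 0.587 in Ncol3-positive ones (SD, n = 4). The 581 others held 2.57% ± 0.404 and 0.702% ± 0.212. Of the 20 higher genes with the largest gain in CPM, 19 were also higher in Ncol3-positive cells, where 14.7% of all genes tested were called. The share among genes of like abundance was not computed.

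The lower genes did not all move the same way in the Ncol3 line. Of the 1077, 691 (64.2%) were also lower in Ncol3-positive cells, where 13% of all genes tested were called in that direction. Their median log2 fold change was −2.02 in the Nep3 line and −1.92 in the Ncol3 line, and 41 of the 691 passed the interaction. These 691 were chosen as called lower in both lines, so the choice itself favours close medians and few interaction calls. A further 212 genes (19.7%) were higher in Ncol3-positive cells, beside 14.7% of all genes called in that direction. Their share changed under the alternatives given below, for which the share over all genes was not computed. No excess over all genes is therefore claimed. The remaining 174 were not called in the Ncol3 line. The interaction was passed by 365 of the 1077 lower genes (33.9%), beside 22.8% of all genes tested. In 355 of the 365 the lower value was in the Nep3 line, a direction called for 11.7% of all genes. The Nep3 difference that chose the lower genes is part of this test, so these shares are a description. The count of 212 depends on the libraries and the method: it was 129 without Nep3-negative replicate 5, 100 (10.4% of the lower genes then called) without negative replicates 4 and 5, 100 with DESeq2 and 106 with limma voom. The count was 300 (23.9%) with only Ncol3 replicates 1 and 2 and 285 (24.6%) with only 3 and 4. With the replicate number as a block, which the main fit left out, it was 334 (27.6%).

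These 212 genes held a larger share of the Nep3-negative counts than the other lower genes. They held 12.3% ± 2.92 of the counts in Nep3-negative libraries and 2.84% ± 0.283 in Nep3-positive libraries (SD, n = 5 each). In the Ncol3 line they held 26.4% ± 8.44 in positive and 4.91% ± 2.36 in negative libraries (SD, n = 4 each). Much of this came from few genes: NV2.18817 alone held 1.79% to 4.27% in Nep3-negative and 3.35% to 9.29% in Ncol3-positive libraries. The 691 genes lower in both lines held 4.59% ± 0.821 in Nep3-negative and 1.21% ± 0.182 in Nep3-positive libraries (SD, n = 5 each). Of the 20 lower genes with the largest loss in CPM, NV2.18817 among them, 16 were higher and 4 lower in Ncol3-positive cells. Of all genes tested, 14.7% were called higher and 13% lower there. The shares among genes of like abundance were not computed, so these counts are a description. Nep3-negative replicate 5 was the highest negative library in 14 of these 20, against 21.9% of all genes tested. By mean share of the 212 genes, the order was Ncol3-positive, Nep3-negative, Ncol3-negative and Nep3-positive libraries. The choice of these genes had already set the order of positive and negative libraries within each line, so the shares are a description.

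**Figure D5:**
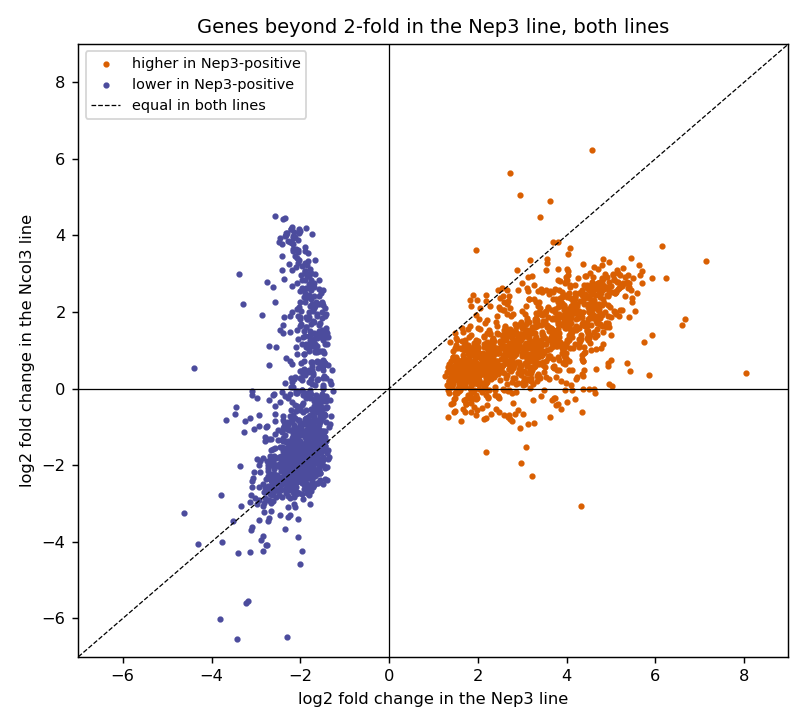
Log2 fold changes between positive and negative cells in the Nep3 line (horizontal) and the Ncol3 line (vertical) for the 1253 higher (orange) and 1077 lower (blue) genes; the dashed line marks equal values. Most higher genes lie below the dashed line and above 0 on the vertical axis, and the lower genes spread from negative to positive values in the Ncol3 line, with 691 lower and 212 higher there.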

How the data were processed

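The authors deposited a single table of raw counts per gene ID, 1 column per library, with no normalization; the unit was read from the values. Trimmomatic, STAR 2.7.10a and featureCounts 2.0.1 are named in the submitters' processing notes. The genome build, annotation, strand setting and filters are not given in the sources used here, so paralogs and overlapping genes are uncertain. Groups and replicate numbers come from the titles; the series text gives 4 replicates per condition, and descriptions of Nep3-positive libraries repeat the number 1.

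Counts were fitted with edgeR 4.0.16 in R 4.3.3: filterByExpr on 4 groups, TMM scaling, 1 robust quasi-likelihood model over 18 libraries, contrasts within lines and their interaction. glmTreat tested differences beyond a log2 fold change of 1 with its default interval null, which is less strict than a test at that boundary. Tests were two-sided and adjusted over all 18976 entries (Benjamini-Hochberg, 0.05); mOrange2 was left out of gene counts. The SE is the log2 fold change divided by the square root of F. In each direction 1 gene was named by gap and 1 by difference in mean CPM, among genes beyond 2-fold with at least 10 CPM in the higher group. The comparison, lists and rules were chosen with earlier results of these data known. Alternatives used DESeq2 1.42.0, limma 3.58.1, other scalings and filters, and left-out libraries. The steps were tested on simulated data.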

Additional observations from a re-analysis of the deposited data

Results flagged for a closer look

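The difference between Nep3-positive and Nep3-negative cells differed from that in the Ncol3 line, by the interaction term, in 3 of the 4 named genes. These genes were named for their extreme difference in the Nep3 line, which is part of the interaction, so the values are a description and their p-values are too small as evidence. The interaction was 3.04 (SE 0.40) on the log2 scale for NV2.25722 (edgeR adjusted p = 7.23e-06), higher in the Nep3 line. It was 2.12 (SE 0.46) for NV2.19682 (edgeR adjusted p = 0.00147), in the same direction. It was −5.88 (SE 0.66) for NV2.18817 (edgeR adjusted p = 1.77e-06), which was lower in Nep3-positive and higher in Ncol3-positive cells. No library lay far from the others of its group by Dixon's criterion in 32 groups of values checked. These were library totals, shares of the higher and lower genes, mOrange2 and the named genes, and chance alone gives about 1 in 20. In groups of 4 or 5 libraries the criterion can miss a pair that stands apart together. Nep3-negative replicates 4 and 5, at 189 and 132 CPM of mOrange2, are such a pair.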

How the results depend on the processing

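The counts of genes called, called higher, called lower and beyond 2-fold stayed within 1.5 times of the reported ones in every alternative run, except for those beyond 2-fold that are named next, and no named gene nor mOrange2 changed direction or its side of the threshold in the test of any difference (557 comparisons with an alternative stayed and 26 moved). For a difference beyond 2-fold, NV2.18817 lost its call with limma voom (adjusted p = 0.0712), without Nep3-negative replicates 4 and 5 (edgeR adjusted p = 0.0729) and without Nep3-positive replicate 5 as well (edgeR adjusted p = 0.138). A minimum mean of 5 CPM, which leaves fewer genes to test, gave 827 higher genes beyond 2-fold, and 379 genes at least 8-fold higher and 8 at least 8-fold lower. Fitting only the 10 Nep3-line libraries gave 19 at least 8-fold lower. DESeq2 gave 634 lower genes beyond 2-fold, of which 460 were lower and 100 higher in the Ncol3 line and 194 passed the interaction. With limma voom 106 of 740 lower genes were higher in the Ncol3 line and 201 passed the interaction. With library size only, 363 of 1205 higher genes were also higher and 55 lower in the Ncol3 line. The cause of these shifts was not tested where none is named. The 8 higher genes that were lower in the Ncol3 line numbered 5 with no filter, 4 with DESeq2, 5 with voom, and 3 to 9 with single libraries left out. They numbered 2 with only Ncol3 replicates 1 and 2, and 3 with only replicates 3 and 4. The 212 lower genes that were higher in the Ncol3 line numbered 129 (without Nep3-negative replicate 5) to 229 (without Ncol3-negative replicate 4). Leaving out Nep3-negative replicates 4 and 5 gave 100, and leaving out Nep3-positive replicate 5 as well gave 74, with 196 lower genes passing the interaction; these, and the restriction to pairs of Ncol3 replicates, were chosen after seeing the data.

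Within the Nep3 line, the deviations from group means of positive and negative libraries with the same number correlated between 0.00738 and 0.270. Not every pair was above 0.1, but 7 of 10 libraries correlated best with their own number. A pairing by number may therefore exist, and the main fit left it out. With the replicate block, 7375 genes were called, and 334 lower genes were higher in the Ncol3 line.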

Other observations

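The most abundant genes of Nep3-positive and Nep3-negative cells were largely shared, with 69 genes among the 100 highest of both. Of the 100 highest in positive cells, 25 were higher genes, 4 were lower genes and 58 were not called even for any difference. Of the 100 highest in negative cells, 1 was a higher and 23 were lower genes, and 64 were not called.

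The common biological coefficient of variation, a measure of the spread between replicates, was 23.2% within Nep3-positive, 24.2% within Nep3-negative, 28.9% within Ncol3-positive and 26.1% within Ncol3-negative libraries. The higher genes varied more than the median gene: their median coefficient of variation of CPM was 29.6% among Nep3-positive libraries, against 21.8% for all genes. The lower gene with the second largest loss in CPM stood at 0.482 to 0.736 times the level of NV2.18817 in all 18 libraries.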
